A study of Homo sapiens and Mus musculus with 92 samples.

Results

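GATA1, GATA2 and their cofactor ZFPM1 (FOG1), together with the stem cell factors TAL1, LYL1, LMO2, RUNX1, FLI1 and ERG and the adaptor LDB1, were followed through knockdown (KD) of MLL1 and of AF9 in HEL cells. These 10 genes were picked by symbol out of the 28103 genes that both count tables list, and all 10 were found in both tables. HEL is an established human erythroleukemia line, and the labels give its cell type as human erythroblast. In the MLL1 experiment, RNA-seq was done on 3 libraries of control cells and 3 of cells in which MLL1 (gene KMT2A) was knocked down. For AF9, it was done on 2 libraries of control cells and 2 of cells in which AF9 (gene MLLT3) was knocked down. Both KDs were made by lentiviral expression of a single shRNA per gene (shRNA #1). By their labels the control cells are WT, and the methods name a pLKO.1 TRC control construct. A single line and a single shRNA per target limit each group as a model. Nothing states that replicates were separate cultures, so p values measure the spread between these libraries only.

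GATA factors are zinc finger proteins that bind GATA motifs in DNA. GATA2 maintains stem and progenitor cells, and GATA1, together with its cofactor ZFPM1, takes over its sites as erythroid and megakaryocytic cells mature. TAL1 and LYL1 are related basic helix-loop-helix (bHLH) factors that pair with E proteins and are joined to GATA factors through LMO2 and LDB1, which do not bind DNA themselves. RUNX1 binds DNA through its Runt domain, and FLI1 and ERG are related ETS factors. GATA2, TAL1, LYL1, LMO2, RUNX1, FLI1 and ERG are known as the heptad, a set of factors that occupy many of the same enhancers in blood stem cells and in acute leukemias. The question put to the data was whether loss of MLL1, a histone H3K4 methyltransferase, or of AF9, a reader protein of transcription elongation complexes, changed the mRNA of these factors.

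Library totals were 6966345 to 10380241 counts in the MLL1 experiment and 12278989 to 14232408 in the AF9 experiment. Replicate 1 stood apart in both groups of the MLL1 experiment. By a chi-square of the counts over genes, per degree of freedom, it differed from replicates 2 and 3 of its own group by 33 to 62.4, whereas replicates 2 and 3 differed by 2.42 in control and 2.72 in MLL1 KD cells. MLL1 KD results are also given with the replicate number as a block, that is, compared within replicate numbers, which mainly sets replicate 1 apart from replicates 2 and 3. In the AF9 experiment, the log2 fold changes of all genes followed the GC content of their exons, with a Spearman rho of 0.48 across 13060 genes, against -0.07 in the MLL1 experiment. AF9 KD results are therefore also given with offsets that remove this trend from each library. All 7 erythroid markers had counts in every group, with summed levels of 705 to 823 CPM (counts scaled to a common library size by TMM) in control and 532 to 542 in MLL1 KD cells, and of 10436 to 10485 in control and 6621 to 8191 in AF9 KD cells. In the AF9 experiment this sum is mostly HBG1, HBG2 and HBE1, while ALAS2 (log2 fold change 0.58, edgeR adjusted p = 5.9e-04), EPOR (0.43, edgeR adjusted p = 0.0416) and KLF1 (0.32, edgeR adjusted p = 0.0189) were higher in AF9 KD cells, all under 1.5-fold. In a bulk sample, fewer cells of a type and less RNA per cell cannot be told apart. Of the T cell, B cell and monocyte markers, CD3D, CD3E, MS4A1, CD14 and FCGR3A had at most 4 counts in any library. The summed T cell markers were at 5.16 to 7.26 CPM in control and 15.3 to 19.6 CPM in MLL1 KD cells, nearly all of it CD2. The summed fibroblast markers were at 1.16 to 2.67 CPM in control and 0.851 to 21.7 CPM in MLL1 KD cells. The part of any of these markers in the results was not tested.

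The targeted genes were examined first. Levels are listed in the order of the replicate numbers. The sites of the 2 shRNAs are shown because they define the KDs, both in coding exons of the canonical transcripts (hg38, 5′ to 3′ on the gene's strand). The MLL1 site lies in exon 3 of KMT2A at chr11:118474149-118474169 on the plus strand, and the AF9 site in exon 5 of MLLT3 at chr9:20414247-20414267 on the minus strand.
MLL1 shRNA #1 target: gcactgttaaacattccactt
AF9 shRNA #1 target: ttcaaagcctcacaaattaat
KMT2A was at 1320, 1304 and 1256 CPM in control and at 816, 814 and 833 CPM in MLL1 KD cells. All MLL1 KD libraries were thus below all control libraries, at 0.635 times the control level (log2 fold change -0.66, SE 0.09). The adjusted p was 0.0722 by edgeR's quasi-likelihood test and 2.5e-07 with the replicate block. KMT2A shares 21.8% of its transcript with an overlapping gene on the same strand and with KMT2B, so its level is uncertain to that extent. MLLT3 was at 548 and 528 CPM in control and 107 and 92.6 CPM in AF9 KD cells, and fell to 0.186 times the control level (log2 fold change -2.43, SE 0.11, edgeR adjusted p = 2.9e-08). KMT2A itself, in AF9 KD cells, was at 0.801 times its control level (edgeR adjusted p = 0.0199, under the fold change required). In MLL1 KD cells, MLLT3 was at 0.821 times its control level (edgeR adjusted p = 0.613).

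In control cells, 9 of the 10 factors were expressed at 54.1 to 1217 TPM (transcript level scaled by gene length and library) in the MLL1 experiment, and ERG was the exception. GATA2 was the most abundant at 1217 TPM, followed by GATA1 at 721, LDB1 at 661, RUNX1 at 407, TAL1 at 334, FLI1 at 277, LYL1 at 245, LMO2 at 83.1, ZFPM1 at 54.1 and ERG at 2.65 TPM. Neighbours in this order often overlapped between libraries, as TAL1 (308 to 347 TPM), FLI1 (220 to 310 TPM) and LYL1 (170 to 293 TPM) did. In the control cells of the AF9 experiment, GATA1 led at 539 TPM, followed by GATA2 at 463, LDB1 at 442, TAL1 at 361, FLI1 at 294, LMO2 at 256, RUNX1 at 116, LYL1 at 52.7, ZFPM1 at 0.95 and ERG at 0.529 TPM. The order of GATA1 and GATA2 there rests on the gene lengths used, merged exons of 1553 and 4915 bases, and turned with the canonical transcripts of 1464 and 3383 bases. GATA1, GATA2, LDB1, LYL1, RUNX1, ZFPM1 and ERG had higher and LMO2, TAL1 and FLI1 lower mean TPM in the control cells of the MLL1 experiment than in those of the AF9 experiment. This difference was not tested, since experiment and batch cannot be told apart.

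**Figure D1:**
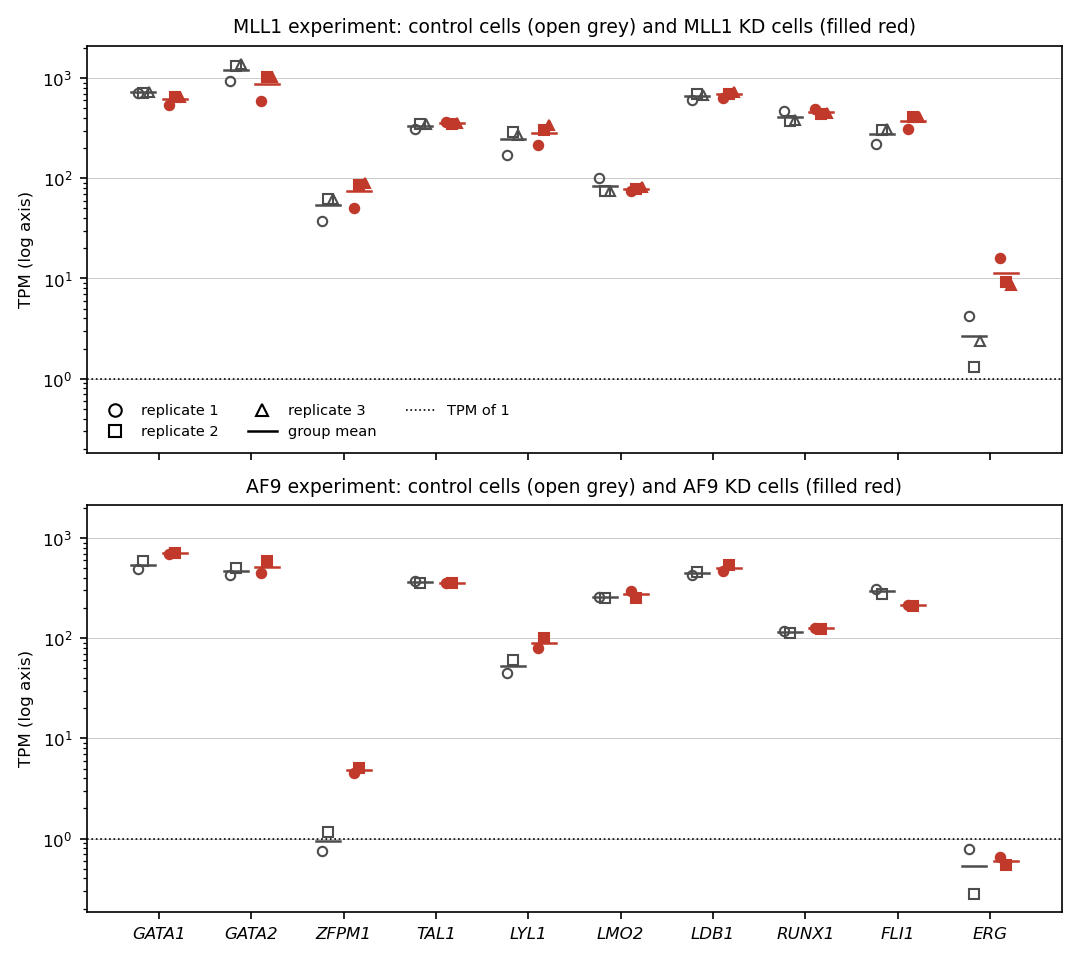
TPM (log axis) of the 10 factors in each library, with control cells as open grey and KD cells as filled red symbols, replicates by symbol shape, and group means as bars. ERG separates MLL1 KD from control cells (upper panel), ZFPM1 separates AF9 KD from control cells (lower panel), and replicate 1 of the MLL1 experiment lies apart from replicates 2 and 3 for GATA2, ZFPM1, LYL1 and FLI1.

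In MLL1 KD cells ERG had the largest difference from control, and the fold changes of the other 9 factors were under 1.5. By edgeR's quasi-likelihood test, 10 of 14406 genes (0.0694%) were called, that is, passed an adjusted p of 0.05 with a change of 1.5-fold or more, and none of the 10 factors was among them. ERG alone had an unadjusted p under 0.05, as did 1437 of all genes. With the replicate block, 320 genes (2.22%) were called higher and 361 (2.51%) lower, and ERG was the only factor called. DESeq2 also called ERG alone, among 223 genes. Without the block, the log2 fold changes of the factors had a median of 0.13, against 0.01 over all genes tested, with 7 factors above and 3 below 0. With the block, 6 factors (ERG, FLI1, GATA1, GATA2, RUNX1 and ZFPM1) had an adjusted p under 0.05, as did 1954 of all genes, but for each of them except ERG the fold change stayed under 1.5.

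AF9 KD gave more calls over the whole table, with 1070 of 13349 genes (8.02%) higher and 675 (5.06%) lower. Of the 9 factors tested, ZFPM1 and LYL1 were called higher and none lower. FLI1 also had an adjusted p under 0.05, but missed the fold change required. ERG, with a mean TPM under 1, was not tested. ZFPM1 reached the TPM of 1 required for testing only through AF9 KD cells, so its presence among the genes tested already depended on a difference. With the GC content offsets, ZFPM1 was still called and LYL1 was not, and the median log2 fold change of the factors moved from 0.05 to -0.24, against 0.01 over all genes in both fits. With these offsets 5 factors (FLI1, GATA2, LDB1, TAL1 and ZFPM1) had an adjusted p under 0.05, as did 3523 of all genes. All of them except ZFPM1 were lower and stayed under 1.5-fold.

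**Figure D2:**
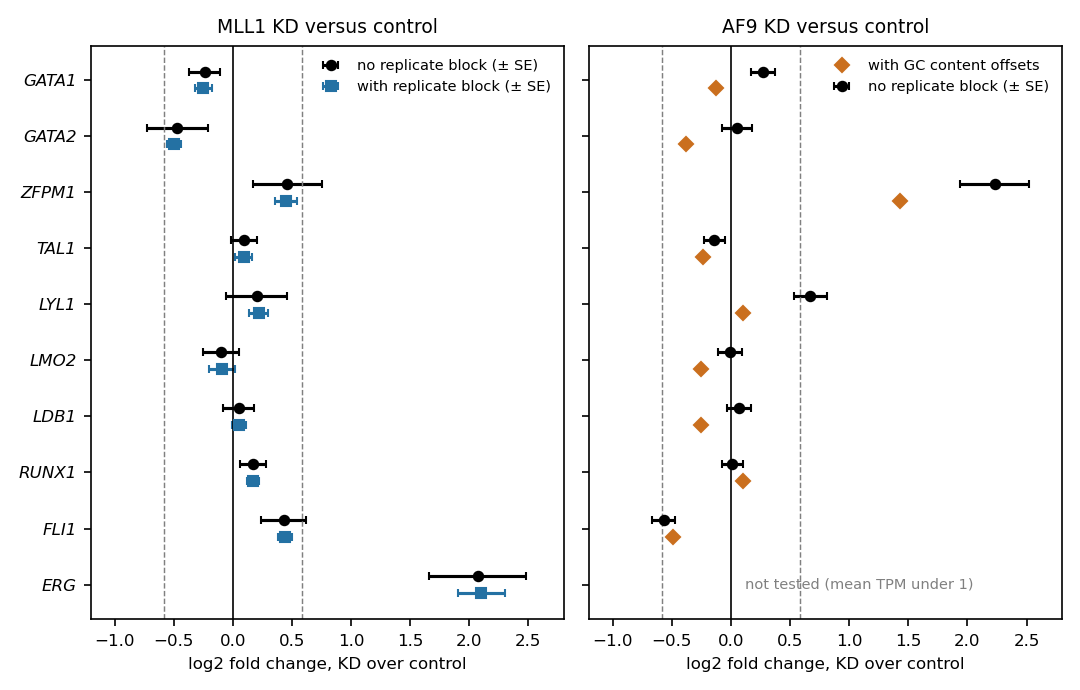
Log2 fold changes of the 10 factors in MLL1 KD (left) and AF9 KD cells (right), with black circles for the fit without a block, blue squares for the fit with the replicate block (bars are SE) and orange diamonds for the fit with GC content offsets (no error drawn). Dashed lines mark a fold change of 1.5. ERG stands at 2.07 and 2.10 on the left, and on the right the offsets lower ZFPM1 from 2.23 to 1.43 and LYL1 from 0.67 to 0.10.

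GATA1 (chrX:48786540-48794311, plus strand, hg38) was lower in every MLL1 KD library than in every control library, by a small margin. Its levels were 280, 295 and 300 CPM in control and 211, 263 and 267 CPM in MLL1 KD cells. It was the only factor with this pattern, a share near the 9.05% of all genes tested that showed it. The log2 fold change was -0.24 (SE 0.13, edgeR adjusted p = 0.592), and with the block -0.25 (SE 0.07, edgeR adjusted p = 0.0304). An exact two-sided permutation test of the log2 CPM gave p = 0.1, the smallest that 3 against 3 libraries allow. The AF9 experiment had GATA1 at 181 and 215 CPM in control and 240 and 237 CPM in AF9 KD cells. The libraries of AF9 KD cells were both above those of control cells, but the log2 fold change of 0.27 (SE 0.10, edgeR adjusted p = 0.0616) did not pass the test and became -0.13 with the GC content offsets, where GATA1 exons have a GC content of 60.8% and the median gene 47.7%.

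GATA2 (chr3:128479427-128493201, minus strand) had the lower level in MLL1 KD cells within each replicate number, although the groups overlapped. It was at 1157, 1750 and 1788 CPM in control and at 729, 1303 and 1348 CPM in MLL1 KD cells. Control replicate 1 lay below MLL1 KD replicates 2 and 3, which produced the overlap. Within replicate numbers 1, 2 and 3 the log2 differences were -0.67, -0.43 and -0.41. The log2 fold change was -0.47 (SE 0.26, edgeR adjusted p = 0.621) without and -0.50 (SE 0.06, edgeR adjusted p = 1.1e-05) with the block, in both cases under 1.5-fold. GATA2 in the AF9 experiment was at 495 and 580 CPM in control and at 483 and 633 CPM in AF9 KD cells. These groups overlapped, and the log2 fold change was 0.05 (SE 0.13, edgeR adjusted p = 0.785). Offsets for GC content gave -0.38 (edgeR adjusted p = 0.00691), so the direction of GATA2 in AF9 KD cells depended on this correction.

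The promoter windows of GATA1 and of the upstream start of GATA2 are shown because these genes define the set and because their windows, unlike those of TAL1 and LYL1, hold no GATA motif. Windows are from RefSeq (GRCh38.p14), run 5′ to 3′ on the gene's strand from 250 bases before to 50 bases after an annotated start, and are at chrX:48786340-48786639 (plus strand) and chr3:128493152-128493451 (minus strand). GATA motifs, searched on both strands as AGATAA or, with the last base changed, AGATAG, and likewise as TGATAA or its variant TGATAG, are in capitals in all windows printed here. Such a motif was found in 25% of the 34943 windows of all genes.
GATA1 promoter: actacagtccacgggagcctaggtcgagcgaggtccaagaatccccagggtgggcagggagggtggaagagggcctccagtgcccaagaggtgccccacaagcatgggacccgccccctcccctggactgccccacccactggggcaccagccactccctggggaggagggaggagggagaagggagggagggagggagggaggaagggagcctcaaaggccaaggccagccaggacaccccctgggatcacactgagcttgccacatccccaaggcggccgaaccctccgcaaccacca
GATA2 promoter: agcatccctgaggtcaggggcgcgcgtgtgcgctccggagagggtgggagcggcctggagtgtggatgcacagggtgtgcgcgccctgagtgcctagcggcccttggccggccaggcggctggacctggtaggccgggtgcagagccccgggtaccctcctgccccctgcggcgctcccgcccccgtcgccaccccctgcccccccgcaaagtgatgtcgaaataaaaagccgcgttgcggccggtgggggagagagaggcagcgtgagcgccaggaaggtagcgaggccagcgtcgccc
The GC content of these windows was 67.7% and 72.3%, against a median of 58.7% over all windows, and they held 7 and 29 CpG dinucleotides, against a median of 14. No GATA motif in these letters was found in either.

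ZFPM1 (chr16:88453280-88537031, plus strand), whose protein FOG1 binds the amino-terminal zinc finger of GATA1, rose 4.7-fold in AF9 KD cells from a very low level. It had 15 and 20 counts in control cells (1.09 and 1.68 CPM) and 79 and 91 counts in AF9 KD cells (6.12 and 6.81 CPM). Both AF9 KD libraries were above both control libraries. The log2 fold change was 2.23 (SE 0.29, edgeR adjusted p = 1.8e-04), and with the GC content offsets it was 1.43 (edgeR adjusted p = 0.0024). At 68.0%, ZFPM1 exons had the highest GC content of the 10 factors. When a mean TPM of 5 was required, ZFPM1 was not tested. In the MLL1 experiment it was expressed at a higher level, 58.6, 101 and 102 CPM in control and 77.8, 136 and 145 CPM in MLL1 KD cells. The groups overlapped through replicate 1, but each MLL1 KD library was above its same-numbered control, with log2 differences of 0.41, 0.42 and 0.51. This gave a log2 fold change of 0.46 (SE 0.29, edgeR adjusted p = 0.688) without and 0.45 (SE 0.09, edgeR adjusted p = 0.0016) with the block, under 1.5-fold in both.

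The promoter window of ZFPM1 (RefSeq, GRCh38.p14, chr16:88453030-88453329, plus strand) is shown because ZFPM1 had the largest fold change of the factors tested in AF9 KD cells and its window is the richest in GC of all member windows.
ZFPM1 promoter: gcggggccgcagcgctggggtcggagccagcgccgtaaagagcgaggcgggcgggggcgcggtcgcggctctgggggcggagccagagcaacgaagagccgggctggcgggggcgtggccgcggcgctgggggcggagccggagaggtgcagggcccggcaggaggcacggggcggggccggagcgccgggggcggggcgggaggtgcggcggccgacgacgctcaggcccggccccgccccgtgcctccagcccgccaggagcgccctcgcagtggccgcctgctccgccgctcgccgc
It had a GC content of 83% and 47 CpG dinucleotides, and no GATA motif was found in it.

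Of the bHLH pair, LYL1 (chr19:13099033-13103161, minus strand) was called higher in AF9 KD cells and TAL1 (chr1:47216290-47232225, minus strand) was not called in either KD. LYL1 was at 33 and 44.8 CPM in control and at 55.5 and 67.5 CPM in AF9 KD cells, with both AF9 KD libraries above both control libraries. The log2 fold change was 0.67 (SE 0.14, edgeR adjusted p = 0.00397). This call was lost with the GC content offsets, where the log2 fold change was 0.10 (edgeR adjusted p = 0.443), and LYL1 exons have a GC content of 63.6%. It was also lost without control replicate 1 (log2 fold change 0.46) and without AF9 KD replicate 2 (log2 fold change 0.52). In the MLL1 experiment, LYL1 was at 134, 244 and 224 CPM in control and at 167, 245 and 280 CPM in MLL1 KD cells. These groups overlapped, with a log2 fold change of 0.20 (SE 0.26, edgeR adjusted p = 0.885). TAL1 was the steadier of the pair, at 442 to 528 CPM in control and 522 to 537 CPM in MLL1 KD cells (log2 fold change 0.09, SE 0.11, edgeR adjusted p = 0.88). Cells of the AF9 experiment had TAL1 at 493 and 480 CPM in control and 445 and 438 CPM in AF9 KD cells. Both AF9 KD libraries were lower, but the log2 fold change of -0.14 (SE 0.09, edgeR adjusted p = 0.284) did not pass the test. With the GC content offsets, TAL1 was at -0.24 (edgeR adjusted p = 0.0425), which passed the p threshold but stayed under 1.5-fold.

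GATA motifs were found in the promoter windows of both bHLH genes, and these are shown for that reason (RefSeq, GRCh38.p14, chr1:47232286-47232585 and chr19:13102809-13103108, both on the minus strand). For TAL1, which has 2 windows, the upstream one is printed.
TAL1 promoter: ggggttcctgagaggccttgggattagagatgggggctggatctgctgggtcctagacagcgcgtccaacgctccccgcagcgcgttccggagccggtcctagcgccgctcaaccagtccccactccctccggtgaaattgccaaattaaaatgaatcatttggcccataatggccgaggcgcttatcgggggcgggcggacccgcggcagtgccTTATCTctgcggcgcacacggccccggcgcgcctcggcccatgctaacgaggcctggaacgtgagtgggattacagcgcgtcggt
LYL1 promoter: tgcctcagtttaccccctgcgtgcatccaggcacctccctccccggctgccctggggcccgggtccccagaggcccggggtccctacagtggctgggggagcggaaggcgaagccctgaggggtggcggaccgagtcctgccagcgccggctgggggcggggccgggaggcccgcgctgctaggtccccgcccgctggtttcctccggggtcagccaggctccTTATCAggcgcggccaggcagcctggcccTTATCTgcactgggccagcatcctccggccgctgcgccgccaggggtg
The TAL1 window held 1 motif, beginning 35 bases before the start. The LYL1 window held 2, the first beginning 27 bases before the start and the other at the base 3 after it. The second TAL1 window held none. Whether a GATA factor occupied these motifs was not measured here.

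Without the GC content offsets, LMO2 and LDB1, which bridge TAL1 and LYL1 to the GATA factors, showed no change that passed the test in either KD. LMO2 (chr11:33858576-33892076, minus strand) ranged from 56.9 to 73.2 CPM in control and from 54.1 to 62.2 CPM in MLL1 KD cells, and the groups overlapped (log2 fold change -0.10, SE 0.15, edgeR adjusted p = 0.906). Cells of the AF9 experiment had 177 and 174 CPM in control and 189 and 160 CPM in AF9 KD cells (log2 fold change -0.01, SE 0.10, edgeR adjusted p = 0.96). With the GC content offsets, LMO2 was at -0.25 there (edgeR adjusted p = 0.115). LDB1 (chr10:102106489-102120368, minus strand) ranged from 571 to 701 CPM in control and from 594 to 732 CPM in MLL1 KD cells (log2 fold change 0.05, SE 0.13, edgeR adjusted p = 0.957). For AF9 KD, LDB1 was at 378 and 412 CPM in control and at 390 and 436 CPM in AF9 KD cells (log2 fold change 0.07, SE 0.10, edgeR adjusted p = 0.654). Offsets for GC content turned the last value to -0.25 (edgeR adjusted p = 0.027).

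RUNX1 (chr21:34787801-36004667, minus strand) had nearly the same level in all libraries of the AF9 experiment, at 430 and 420 CPM in control and 435 and 419 CPM in AF9 KD cells (log2 fold change 0.01, SE 0.09, edgeR adjusted p = 0.968). In the MLL1 experiment it was at 1826, 1569 and 1551 CPM in control and at 1938, 1776 and 1837 CPM in MLL1 KD cells. All 3 replicate numbers had the higher value in MLL1 KD cells, but control replicate 1 overlapped with that group. Its log2 fold change was 0.17 (SE 0.11, edgeR adjusted p = 0.688) without and 0.17 (SE 0.05, edgeR adjusted p = 0.0276) with the block.

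The ETS pair gave the widest contrast. ERG (chr21:38380027-38661780, minus strand) had the largest fold change of the 10 factors in MLL1 KD cells, 4.2-fold, from a low level. It had 63, 19 and 37 counts in control (8.13, 2.64 and 4.71 CPM) and 302, 127 and 160 counts in MLL1 KD cells (30.1, 18 and 17.3 CPM). Each MLL1 KD library was above each control library. Of the 10 factors ERG alone had all MLL1 KD libraries higher, a share near the 8.65% of all genes tested. ERG had a log2 fold change of 2.07 (SE 0.41, edgeR adjusted p = 0.155) without the block, where it was not called, and of 2.10 (SE 0.20, edgeR adjusted p = 1.8e-06) with it. The call also held in the blocked fit when any replicate number was left out of both groups, with log2 fold changes of 1.87 to 2.25. With replicates 2 and 3 alone, the log2 fold change was 2.24 (edgeR adjusted p = 2.9e-13). Erythroid marker levels were lower in the same MLL1 KD libraries, and their part in the ERG difference was not tested. ERG had only 19 and 6 counts in control and 14 and 12 in AF9 KD cells of the AF9 experiment, so the groups overlapped, at 0.504 to 1.38 CPM.

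ERG has several annotated starts, and 2 of its 4 promoter windows are shown because they differ in composition and because the downstream one holds a GATA motif (RefSeq, GRCh38.p14, chr21:38660618-38660917 and chr21:38498455-38498754, both on the minus strand).
ERG promoter, upstream start: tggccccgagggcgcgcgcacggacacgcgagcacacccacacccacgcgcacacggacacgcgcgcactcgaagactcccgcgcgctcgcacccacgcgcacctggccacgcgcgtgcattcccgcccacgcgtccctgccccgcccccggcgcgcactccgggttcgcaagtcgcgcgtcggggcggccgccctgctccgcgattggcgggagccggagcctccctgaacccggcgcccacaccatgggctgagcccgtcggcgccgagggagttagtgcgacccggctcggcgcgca
ERG promoter, downstream start: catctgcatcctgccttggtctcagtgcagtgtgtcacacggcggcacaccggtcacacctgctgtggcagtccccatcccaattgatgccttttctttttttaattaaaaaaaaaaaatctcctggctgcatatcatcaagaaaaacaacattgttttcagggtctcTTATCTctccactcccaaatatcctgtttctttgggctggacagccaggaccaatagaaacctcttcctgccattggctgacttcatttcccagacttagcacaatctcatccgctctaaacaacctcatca
The upstream window had a GC content of 77% and 53 CpG dinucleotides, and the downstream window had 45.7% and 4. The motif in the downstream window begins 82 bases before that start. Gene counts do not tell which start the ERG reads in MLL1 KD cells came from.

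FLI1 (chr11:128686535-128813267, plus strand), which is abundant in megakaryocytic cells, had log2 fold changes of opposite sign in the 2 KDs, neither of them called. It was at 583 and 530 CPM in control and at 383 and 364 CPM in AF9 KD cells, so that both AF9 KD libraries were lower. At 0.671 times the control level (log2 fold change -0.57, SE 0.10, edgeR adjusted p = 9.1e-04), FLI1 passed the p threshold and fell just short of 1.5-fold. With the offsets it was at -0.49 (edgeR adjusted p = 0.00106). In the MLL1 experiment, FLI1 was at 445, 645 and 654 CPM in control and at 620, 857 and 875 CPM in MLL1 KD cells. The groups overlapped because MLL1 KD replicate 1 lay below control replicates 2 and 3. Within replicate numbers the log2 differences were 0.48, 0.41 and 0.42. FLI1 had a log2 fold change of 0.43 (SE 0.19, edgeR adjusted p = 0.523) without and 0.44 (SE 0.06, edgeR adjusted p = 5.3e-05) with the block, under 1.5-fold in both.

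Among the AF9 libraries, 3 of the 9 factors tested (GATA1, ZFPM1 and LYL1) had both AF9 KD libraries above both control libraries, as had 32.8% of all genes, and 2 (TAL1 and FLI1) had both below, as had 33.2% of all genes. These shares were close to those of all genes. With 2 against 2 libraries, the smallest p of an exact two-sided permutation test is 0.333.

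Whether the effect of a KD on a factor differed between the experiments was tested as the MLL1 KD effect minus the AF9 KD effect. The control cells of the 2 experiments also differed, with summed erythroid markers at 705 to 823 CPM for MLL1 and 10436 to 10485 CPM for AF9. A difference due to the gene knocked down and one due to the experiment or its cells cannot be told apart here. By edgeR, 173 of 12749 genes (1.36%) were called and none of the 9 factors tested was, although 3 of them had an unadjusted p under 0.05, as had 2210 of all genes. DESeq2 called FLI1 and ZFPM1, among 717 genes. With the replicate block, 1948 genes (15.3%) were called, among them FLI1 and ZFPM1. The block here also paired the AF9 libraries by number, although 2 pairs cannot show that the numbers pair them (correlation 0.157). The blocked p values of the difference depend on this pairing. The difference for FLI1 was 1.03 on the log2 scale (SE 0.28, edgeR adjusted p = 0.106), and with the block 1.03 (SE 0.10, edgeR adjusted p = 3.5e-06). For ZFPM1 it was -1.75 (SE 0.53, edgeR adjusted p = 0.133), with the block -1.76 (SE 0.25, edgeR adjusted p = 1.1e-04), and with the GC content offsets and no block -1.02 (edgeR adjusted p = 0.25). ZFPM1 reached the TPM required in the AF9 experiment only through AF9 KD cells (0.95 TPM in control, 4.79 in AF9 KD cells). Its presence in this test thus already depended on a difference. For GATA1 the difference was -0.49 (SE 0.19, edgeR adjusted p = 0.211), and it was -0.08 with the GC content offsets. ERG could not be compared, since it was not tested in the AF9 experiment.

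Ratios of related factors within a library do not depend on how libraries are scaled, but they do depend on the GC trend where the factors differ in it. The GATA1:GATA2 ratio, by TPM, was 0.767, 0.534 and 0.53 in control and 0.915, 0.638 and 0.626 in MLL1 KD cells. Every MLL1 KD library was above its same-numbered control by a nearly constant amount, 0.24 to 0.26 on the log2 scale, but the groups overlapped and the exact two-sided permutation p was 0.5. An exact test that flips the signs of the 3 paired differences gave p = 0.25, the smallest that 3 pairs allow. For AF9 KD, the ratio was 1.15 and 1.17 in control and 1.57 and 1.19 in AF9 KD cells (log2 difference 0.23, exact permutation p = 0.333). With canonical transcript lengths, an alternative chosen after seeing the data, the ratios of the AF9 experiment were 0.843 and 0.857 in control and 1.15 and 0.866 in AF9 KD cells, so which of the pair was the more abundant depended on the lengths. The differences between KD and control cannot depend on them, since other lengths shift the log2 ratio of every library by the same amount.

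The TAL1:LYL1 ratio, by TPM, was 8.16 and 5.86 in control and 4.38 and 3.55 in AF9 KD cells, a log2 difference of -0.81 without overlap (exact permutation p = 0.333, the smallest possible). With the GC content offsets, the fitted log2 fold changes were 0.10 for LYL1 and -0.24 for TAL1, closer to each other than without them. In the MLL1 experiment it was 1.05 to 1.81 in all 6 libraries (log2 difference -0.13, exact permutation p = 0.5). The FLI1:ERG ratio was 51.6, 230 and 131 in control and 19.5, 44.9 and 47.8 in MLL1 KD cells. All MLL1 KD libraries had a smaller excess of FLI1 over ERG than all control libraries, with a log2 difference of -1.74 (0.299 times, exact permutation p = 0.1, the smallest possible). For AF9 KD the ratio was 398 and 992 in control and 333 and 382 in AF9 KD cells, which rests on 6 to 19 counts of ERG.

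**Figure D3:**
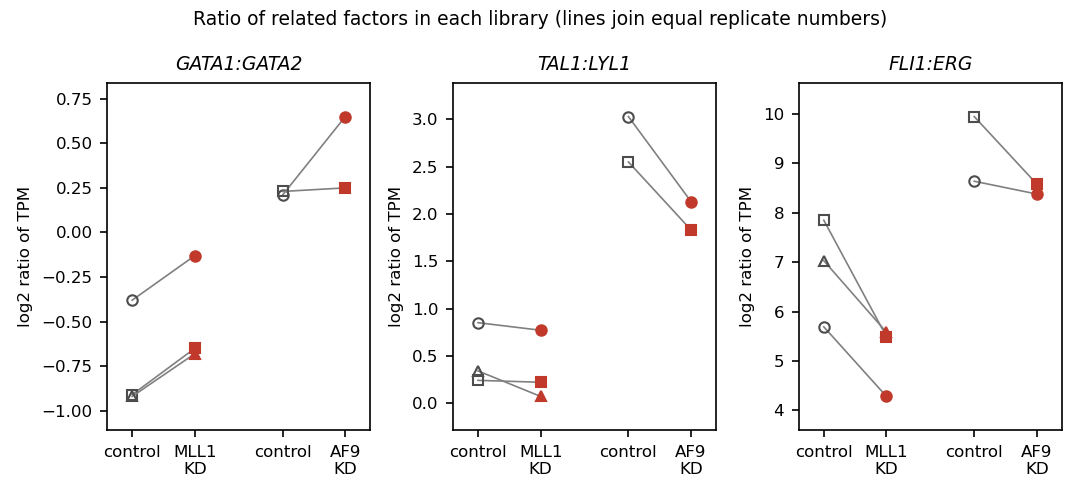
Log2 ratio of TPM between related factors in each library of control (open grey) and KD cells (filled red), where circles, squares and triangles are replicates 1, 2 and 3 and lines join equal replicate numbers. The GATA1:GATA2 lines of the MLL1 experiment run in parallel, 0.24 to 0.26 higher in MLL1 KD cells, and all FLI1:ERG points of MLL1 KD cells lie below those of their controls.

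The genes that work with, resemble or respond to these factors were counted next, on 5 lists. These lists were chosen with earlier results of these data known, so the shares called only describe them. In MLL1 KD cells, 19 partners, 8 paralogs, 19 erythroid, 12 megakaryocyte and 13 stem and progenitor genes were tested. In AF9 KD cells the numbers were 19, 9, 19, 12 and 12. None of the list genes was called by edgeR without the block in MLL1 KD cells, against 10 of all 14406 genes tested. With the block 14 were called, against 681 of all genes, and by DESeq2 7, against 223. After AF9 KD 18 were called, against 1745 of all 13349 genes tested, and 12 with the GC content offsets, against 1064. Of the 19 partners (E proteins, SSBP proteins and subunits of the corepressors that GATA1, ZFPM1 and TAL1 recruit), 3 were called higher and 2 lower in AF9 KD cells, where 8.02% of all genes were called higher and 5.06% lower, with a median log2 fold change of 0.07 over the list. The E protein gene TCF3, whose products pair with TAL1 and LYL1, rose (log2 fold change 0.88, edgeR adjusted p = 1.7e-04), as did SSBP4, a relative of the LDB1-binding proteins (log2 fold change 1.01, edgeR adjusted p = 8.3e-04). Of the NuRD corepressor subunits, to which ZFPM1 binds, MBD3 rose (log2 fold change 1.44, edgeR adjusted p = 1.0e-04) while MTA2 (log2 fold change -0.65, edgeR adjusted p = 2.5e-04) and GATAD2B (log2 fold change -0.91, edgeR adjusted p = 2.2e-04) fell. With the GC content offsets, the log2 fold changes were 0.38 for TCF3 and 0.21 for SSBP4, under 1.5-fold, and 0.92 for MBD3, -0.82 for MTA2 and -0.87 for GATAD2B. In MLL1 KD cells no partner was called with or without the block, and the largest log2 fold changes were -0.45 for MTA2 and 0.33 for GATAD2A.

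Of the 16 paralogs of the factors, 8 could be tested in MLL1 and 9 in AF9 KD cells. In AF9 KD cells 2 were called higher and 1 lower, where 8.02% and 5.06% of all genes were. Among these, RUNX3 (log2 fold change 0.72, edgeR adjusted p = 0.017) and the ETS gene FEV (log2 fold change 0.65, edgeR adjusted p = 0.0228) rose in AF9 KD cells, and ZFPM2, the relative of ZFPM1, fell (log2 fold change -0.91, edgeR adjusted p = 0.024). Offsets for GC content put RUNX3 at 0.37 and FEV at -0.11, whereas ZFPM2 stayed at -0.87. DESeq2 called none of these 3 genes, nor did edgeR without control replicate 1. None was called in MLL1 KD cells, where TAL2 (log2 fold change -1.82, SE 1.37) and GATA5 (log2 fold change 0.48, SE 1.21) had the largest values at levels of about 1 CPM or less. TAL2 reached the TPM required only through control cells (1.81 TPM, against 0.475 in MLL1 KD cells). GATA5 did so only through MLL1 KD cells (1.47 TPM, against 0.998 in control). Being tested thus already depended on a difference for both.

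Erythroid target genes of GATA1 differed between the KDs in which members passed the test. Of 19 tested, none was called in MLL1 KD cells by edgeR without the block and 2 by DESeq2. With the block 6 fell, where 2.51% of all genes did, and none rose. These were ALAS2, which encodes the first enzyme of heme synthesis in erythroid cells, and the globin genes HBA1, HBA2, HBE1, HBG2 and HBZ. ALAS2 was at 35.1 ± 4.3 CPM in control and 10.4 ± 3.59 CPM in MLL1 KD cells (SD, n = 3), without overlap (log2 fold change -1.75, edgeR adjusted p = 0.1, with the block -1.78 and 2.1e-06). The embryonic globin gene HBZ had a log2 fold change of -1.45 (edgeR adjusted p = 0.301, with the block -1.42 and 0.0151). In AF9 KD cells HBG1 and HBG2, the fetal globin genes, fell (both log2 fold changes -0.60, edgeR adjusted p = 0.00175 and 0.00291) and HBA1 and HBA2 rose (log2 fold changes 1.15 and 1.22, edgeR adjusted p = 4.2e-04 and 7.0e-04). Of all genes, 8.02% were called higher and 5.06% lower. Offsets for GC content put HBA1 at 0.43, HBA2 at 0.52 and HBG1 at -0.54, under 1.5-fold, and HBG2 at -0.59. TFRC, not called without the offsets, was at 0.71 with them (0.58 without). In that fit 1 gene of the list was called higher and 1 lower. Without control replicate 1, 2 erythroid genes were called. HBA1 and HBA2, and likewise HBG1 and HBG2, are nearly identical in sequence, so reads may be split between the members of each pair. The median of the list was -0.19 in MLL1 and 0.39 in AF9 KD cells, against 0.01 over all genes in both.

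Of 12 megakaryocyte genes tested, none was called by edgeR without the block in MLL1 KD cells and 1 by DESeq2. With the block PF4, a platelet chemokine (log2 fold change 1.19, edgeR adjusted p = 6.3e-04), and THBS1, which encodes thrombospondin 1 (log2 fold change 1.99, edgeR adjusted p = 4.9e-10), rose and the tubulin gene TUBB1 fell. THBS1 varied widely among MLL1 KD libraries, at 120 ± 75.7 CPM against 30.7 ± 21.2 CPM in control cells (SD, n = 3). THBS1 also rose in AF9 KD cells (log2 fold change 0.64, edgeR adjusted p = 0.00592) and PLEK, which encodes the platelet protein pleckstrin, fell from 1478 ± 97.7 to 767 ± 28.9 CPM (SD, n = 2, log2 fold change -0.95, edgeR adjusted p = 5.3e-05). These were the 2 genes of the list called, against 1 without AF9 KD replicate 1 and 4 without AF9 KD replicate 2. With the GC content offsets 1 was called higher and 2 lower. THBS1 was then at 0.72, PLEK at -0.88 and GP9, which was at 0.03 without the offsets, at -0.71. The list median was 0.04 in MLL1 and -0.08 in AF9 KD cells.

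Stem and progenitor genes that were called were lower in AF9 KD cells, while in MLL1 KD cells calls depended on the fit. In MLL1 KD cells none of 13 tested was called by edgeR without the block, 2 without MLL1 KD replicate 1, and 4 by DESeq2. With the block CD34, GFI1, MYB and SOX4 rose and MEIS1 fell, against 2.22% higher and 2.51% lower of all genes, and 3 genes of the list were called without replicate 2 of both groups. GFI1, a transcriptional repressor of stem cells and granulocytes, was at 1.33 ± 0.52 CPM in control and 8.43 ± 2.17 CPM in MLL1 KD cells (SD, n = 3), a log2 fold change of 2.66. It reached the TPM of 1 required for testing only through MLL1 KD cells (0.897 TPM in control), so that being tested already depended on a difference. CD34, the surface marker of stem and progenitor cells, had a log2 fold change of 1.48 (edgeR adjusted p = 0.51), and 1.60 with the block (edgeR adjusted p = 3.5e-04). Its counts were low, at 78, 27 and 11 in control and 231, 67 and 92 in MLL1 KD cells. The groups overlapped, since control replicate 1 (10.1 CPM) lay above MLL1 KD replicates 2 and 3 (9.5 and 9.94 CPM). In AF9 KD cells 4 of 12 tested fell, where 5.06% of all genes did, and none rose. They were KIT, the stem cell factor receptor (log2 fold change -0.96, edgeR adjusted p = 0.00243), CD34 (log2 fold change -0.86, edgeR adjusted p = 0.0227), ANGPT1 (log2 fold change -0.66, edgeR adjusted p = 0.00173) and the homeobox gene HHEX (log2 fold change -0.62, edgeR adjusted p = 4.9e-04). With the GC content offsets 3 of the 4 stayed called, and ANGPT1 was at -0.43. By DESeq2, or scaled by total counts, 2 of the list were called. The list median was 0.32 in MLL1 and -0.27 in AF9 KD cells.

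The test of the difference between the KD effects called, without the block, 8 of the 70 list genes tested, against 1.36% of all genes. They were GATAD2B and MBD3 of the partners, ETS2 and ETV6 of the paralogs, ALAS2 of the erythroid genes, and ANGPT1, SOX4 and GFI1 of the stem and progenitor genes. No megakaryocyte gene was called. For ALAS2 the MLL1 KD effect minus the AF9 KD effect was -2.32 on the log2 scale (SE 0.33, edgeR adjusted p = 0.0219), and with the GC content offsets -2.14 (edgeR adjusted p = 0.0463). GFI1 is counted here with the limit given above. CD34 had a difference of 2.37 (SE 0.90, edgeR adjusted p = 0.212), which was called only with the block (2.46, edgeR adjusted p = 2.9e-04). With the block, which here also paired the AF9 libraries, 27 of the 70 list genes were called, against 15.3% of all genes. They were 4 of 19 partners, 4 of 8 paralogs, 9 of 19 erythroid, 1 of 12 megakaryocyte and 9 of 12 stem and progenitor genes. Because the lists were chosen with earlier results of these data known, these shares only describe them and do not test them. As for the factors, the gene knocked down and the experiment cannot be told apart in these differences.

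**Figure D4:**
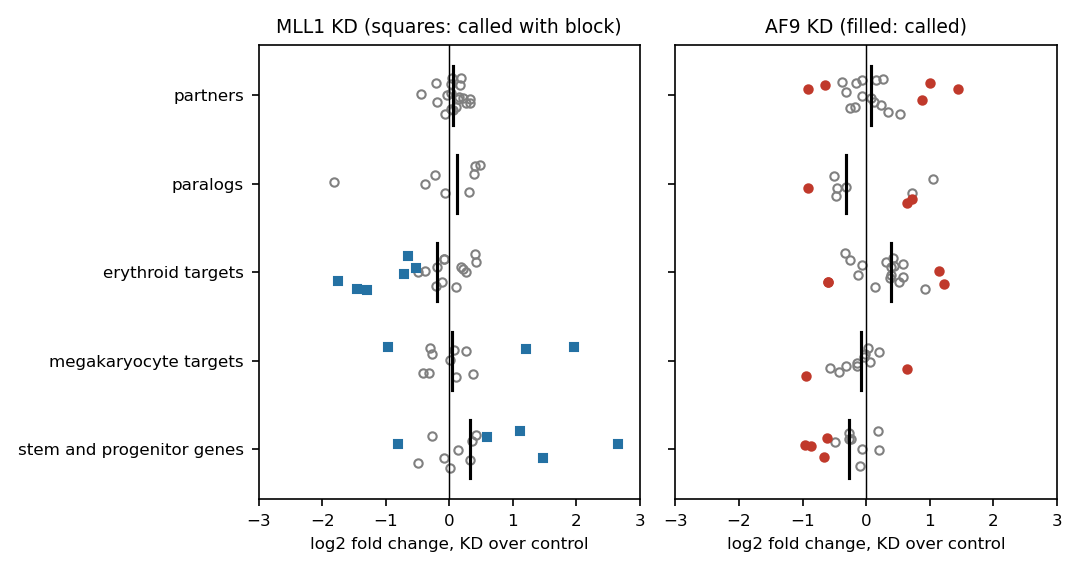
Log2 fold changes, without the block, of the tested genes of 5 lists in MLL1 KD (left) and AF9 KD cells (right), where each symbol is a gene and the black bar is the list median. Blue squares mark genes called with the replicate block in MLL1 KD cells, red circles mark genes called in AF9 KD cells, and open circles were not called. The squares of the erythroid list lie below 0 on the left, and the red circles of the stem and progenitor list lie below 0 on the right.

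Finally, the genes whose levels varied most like those of the GATA factors were listed, by Pearson's r over 10 libraries of log2 CPM centred within each experiment, among 12749 genes. For GATA1 these were CTSD, which encodes cathepsin D (r = 0.975), TADA3 (r = 0.967) and FAM234A (r = 0.966). For GATA2 they included ADAMTSL4 (r = 0.992) and the antisense transcript EML2-AS1 (r = 0.977). Between members, GATA1 and GATA2 had r = 0.77, GATA2 and LDB1 had r = 0.699, and GATA2 and RUNX1 had r = -0.887. The 10 points share library preparation, the KDs and the GC trend, and replicate 1 of the MLL1 experiment lies apart in both groups, so these values only describe the libraries.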

How the data were processed

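RNA-seq counts per gene for 10 libraries of HEL cells were used. Per the labels and methods, the authors filtered reads of strand-specific polyA libraries with fastp 0.13.1, mapped them to hg38 with HISAT2 2.1.0 and deposited raw counts per gene from featureCounts 1.6.1. The annotation behind the symbols is not given in the sources used here.

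Symbols were joined to GENCODE for exon length and GC content (25237 of 28103 directly, 701 through an older symbol). TPM used merged exon lengths. Every gene whose TPM averaged 1 or more over an experiment was tested with edgeR 4.0.16 (TMM, quasi-likelihood, R 4.3.3), with Benjamini-Hochberg adjustment over all genes tested. A call needed an adjusted p under 0.05 together with a change of 1.5-fold or more. Log2 CPM used a prior count of 2. DESeq2 1.42.0, other scalings and filters, the replicate block, GC content offsets (lowess span 0.3) and left-out libraries were alternatives. Scripts were tested on simulated data. SE values were derived from the edgeR quasi-likelihood fits and, like the p values, measure the spread between these libraries only.

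Replicate numbers were taken to pair the libraries of the MLL1 experiment, where the deviations of same-numbered libraries from their group means had correlations of 0.648, 0.325 and 0.351. Those of control replicate 2 with MLL1 KD replicate 3 and of control replicate 3 with MLL1 KD replicate 2 were as high (0.369 and 0.36), so the numbers tell replicate 1 from the others but not replicates 2 and 3 from each other. With 2 pairs, the AF9 experiment could not meet this rule, although the blocked test of the difference also paired its libraries by number.

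The 10 factors and the gene lists were chosen with earlier results of these data known. Named are all factors, the targeted genes, list genes called in either experiment (at most 6 per list and experiment) or otherwise the 2 with the largest fold change, and the 3 genes most like GATA1 and GATA2. List genes called only with the block, or only in the test of the difference between the KDs, were named after their values were seen. Some genes that these rules name are not reported here.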

Additional observations from a re-analysis of the deposited data

How the results depend on the processing

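In MLL1 KD cells the number of factors called moved from 0 to 1 (ERG) with DESeq2 on the same genes or on all genes, with the replicate block, with or without GC content offsets, and with replicates 2 and 3 alone. It was 0 with each single library left out, and 1 in the blocked fit with any replicate number left out, an alternative chosen after seeing the data, as was edgeR's newer quasi-likelihood method. List genes called in MLL1 KD cells moved from 0 to 7 with DESeq2 on either gene set, 2 without the filter, 14 with the replicate block, 13 with the block and GC content offsets, and 14 with replicates 2 and 3 alone. They were 0 to 3 with a library left out, 3 without MLL1 KD replicate 1, and 10 to 14 in the blocked fit with a replicate number left out. In AF9 KD cells the number of factors called moved from 2 to 1 with a fold change of 2, a mean TPM of 5, or GC content offsets with or without the block, and was 1 to 3 with a library left out, 1 without control replicate 1 or AF9 KD replicate 2. It was 2 with the replicate block. List genes called there moved from 18 to 38 without a fold change threshold and 4 with a fold change of 2, and were 12 to 21 with a library left out. The factors whose effects differed between the KDs moved from 0 to 2 with DESeq2 on either gene set, the replicate block, the block with GC content offsets, and replicates 2 and 3 alone, and were 0 to 1 with a library left out, 1 without MLL1 KD replicate 1. Across all genes, the block raised calls from 10 to 681 in MLL1 KD cells, from 1745 to 1961 in AF9 KD cells, where same-numbered libraries had a correlation of 0.157, and from 173 to 1948 for the difference. GC content offsets lowered calls in AF9 KD cells to 1064. Why the block and the offsets moved these counts was not tested.

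Some log2 values changed sign (ranges are with a library left out). The log2 TAL1:LYL1 difference in MLL1 KD cells was 0.06 without control replicate 1 and 0.01 without MLL1 KD replicate 3 (range -0.33 to 0.06). Without control replicate 1, LYL1 became -0.02 (range -0.02 to 0.39), LMO2 0.03 (-0.16 to 0.03) and LDB1 -0.04 (-0.04 to 0.13) in MLL1 KD cells. There LDB1 was -0.02 without MLL1 KD replicate 3, and LMO2 was 0.08 without replicate 1 in both groups, with or without the block. In AF9 KD cells, GC content offsets without and with the block gave -0.13 and -0.14 for GATA1, -0.38 and -0.39 for GATA2, and -0.25 and -0.25 for LDB1, of which GATA2 (edgeR adjusted p = 0.00691 and 1.9e-04) and LDB1 (0.027 and 0.0179) passed an adjusted p of 0.05. Without a library, GATA2 became -0.06 or -0.15 (range -0.15 to 0.24), LDB1 -0.01 (-0.01 to 0.15), LMO2 0.01 or 0.11 and RUNX1 -0.01 or -0.02. LMO2 was 0.08 with total counts and 0.02 with a mean TPM of 5, and RUNX1 -0.00 with DESeq2 on all genes and -0.01 without the filter. Of the differences between KDs, offsets without and with the block gave 0.11 and 0.11 for LYL1, 0.20 and 0.20 for LMO2, and 0.33 and 0.34 for LDB1 (edgeR adjusted p = 0.0285 for the last). LMO2 was 0.11 with replicates 2 and 3 alone and 0.05 or 0.06 without a library (range -0.20 to 0.06). LDB1 was 0.00 with DESeq2 or its size factors, 0.02 with DESeq2 on all genes, and 0.04 to 0.08 without a library (range -0.09 to 0.08). The other alternatives kept the direction of these values. Of the values of single genes and lists under the alternatives, 793 kept their direction and their side of the threshold, 33 passed it only there, 7 no longer passed it, 40 changed sign and 52 counts moved by more than 1.5 times. Low counts limited ERG (6 to 19) and ZFPM1 (15 to 91) in the AF9 experiment, although its libraries were deeper than those of the MLL1 experiment. Scaling by total counts moved the median log2 fold change of all genes in AF9 KD cells to 0.098 and that of the difference to -0.113.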
